A study of Homo sapiens with 15 samples.

Results

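Myosin heavy chains are the motor subunits of muscle and non-muscle contraction, and 6 of their genes were followed through cardiac differentiation: MYH6, MYH7, MYH7B, MYH9, MYH10 and MYH11. The genes were taken by symbol, and they are 6 of the 60605 genes in the count table. Each gene was described by its counts and by its FPKM, which divides the counts by the exonic length and by the library total.

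The libraries came from H1, an established human embryonic stem cell line, under monolayer cardiac differentiation. All cells received CHIR99021, a WNT activator, on Day 0 and insulin on Day 1, and the Day 0, Day 1 and Day 2 cultures gave 1 library each that all arms share. From Day 2 there were 3 arms: NP-ctrl, not passaged and given no inducer, NP-IWP2, not passaged and given IWP2, an inhibitor of WNT secretion, and passaged, dissociated with EDTA and replated without a WNT inhibitor. Each arm gave 1 library on each of Days 3, 5, 7 and 10, for 15 libraries in all. By the study's description replating also lowered the cell density and exposed the cells to the ROCK inhibitor Y27632. ROCK activates non-muscle myosin, and its inhibition cannot be told apart from replating in these libraries.

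Heavy chains of class II myosin pair into a long rod with a motor head at one end of each chain, and the motor pulls on actin. The sarcomeric chains build the thick filaments of the heartbeat: MYH6 encodes the fast alpha chain, typical of atria and of early cardiomyocytes, MYH7 encodes the slower beta chain, which prevails in the human ventricle, and MYH7B is an ancient relative of both with a microRNA gene in an intron. MYH9 and MYH10 encode the non-muscle chains IIA and IIB, which drive cytokinesis, adhesion and cell movement in most cell types, and MYH11 encodes the smooth muscle chain.

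On the assembly GRCh38 the sarcomeric pair lay side by side on the minus strand of chromosome 14, MYH6 (ENSG00000197616) at chr14:23381982-23408273 and MYH7 (ENSG00000092054) at chr14:23412740-23435660. MYH7B (ENSG00000078814) lay on the plus strand at chr20:34955810-35002437. On minus strands, MYH9 (ENSG00000100345) lay at chr22:36281280-36387967, MYH10 (ENSG00000133026) at chr17:8474207-8630761 and MYH11 (ENSG00000133392) at chr16:15703135-15857028. All 6 are protein-coding, and 5 reached 1 FPKM in some library, which was the filter for testing. MYH11 did not pass.

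MYH6 and MYH7 are close copies, so their sequences bear on every value that separates them. In the reference transcripts, 32 pairs of exons at matching places had equal length, and over their 5143 bases the identity was 91.9%. The identity ranged from 65.9% to 100% by exon. One coding exon was identical over all of its 390 bases, exon 26 of 39 in MYH6 (chr14:23390057-23390446) and exon 27 of 40 in MYH7 (chr14:23419845-23420234). Its first 120 bases in the sense of the genes are shown because no read lying wholly within them could be assigned to 1 of the 2 genes.
Start of the exon shared by MYH6 and MYH7: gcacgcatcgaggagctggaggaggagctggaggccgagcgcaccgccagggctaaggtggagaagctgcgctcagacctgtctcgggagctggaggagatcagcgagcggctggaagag

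The exon just before it was the least alike. A stretch of 60 bases from exon 25 of MYH6 (chr14:23392593-23392652) and exon 26 of MYH7 (chr14:23420989-23421048) is shown as the contrast, with the 22 bases that differ in capitals.
MYH6: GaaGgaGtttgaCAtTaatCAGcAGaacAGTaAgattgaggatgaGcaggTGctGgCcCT
MYH7: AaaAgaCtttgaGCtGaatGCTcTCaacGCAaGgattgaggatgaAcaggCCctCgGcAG

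Of all windows of 50 bases in the MYH6 transcript, 14.8% occurred unchanged in the MYH7 transcript, and of windows of 100 bases 5.29% did. The corresponding shares of the MYH7 transcript were 14.6% and 5.21%. How reads from such windows were handled, and how long the reads were, is not given in the sources used here. The counts bear on it directly: in NP-IWP2 on Day 7 the MYH6 row held 74484 counts and the MYH7 row 562, a ratio of counts of 0.00755. Whatever the handling, MYH6 reads placed in the MYH7 row could make up no more than this ratio in that library.

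MYH6 was close to 0 through mesendoderm induction and became one of the most abundant transcripts of the passaged cells. On Days 0, 1 and 2 its FPKM was 0.01, 0 and 0.01. On Days 3, 5, 7 and 10 the NP-ctrl values were 0.42, 1.98, 116 and 123. Those of NP-IWP2 were 0.07, 13.1, 633 and 445, and those of the passaged arm 0.01, 119.6, 778 and 1013. In bulk RNA fewer cells of a type and less RNA in each cell cannot be told apart. Passaged cells had the highest level of the arms on Days 5, 7 and 10, and on Day 3 they lay below NP-ctrl. On Day 10 MYH6 ranked 16 by FPKM among the 19942 protein-coding genes in the passaged library, 25 in NP-IWP2 and 138 in NP-ctrl.

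**Figure D1:**
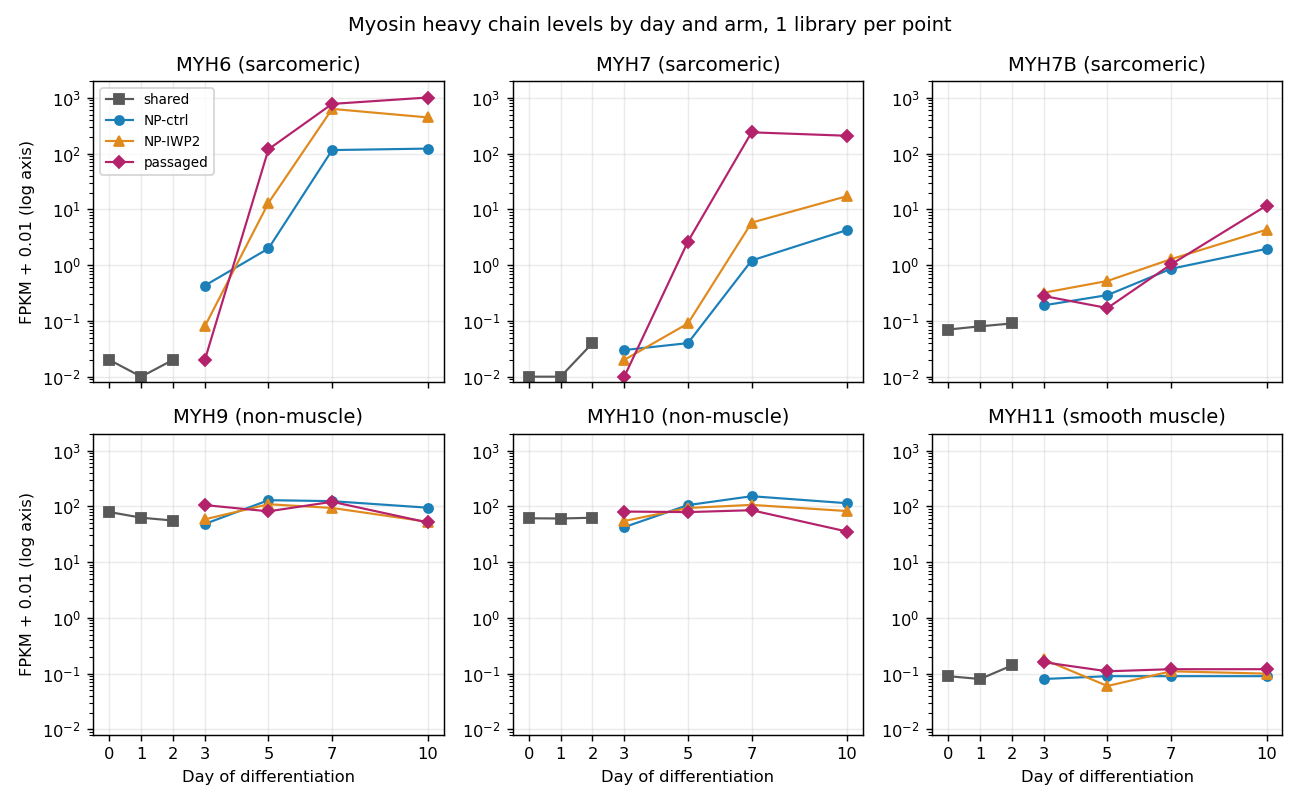
FPKM of each myosin heavy chain gene (log axis, 0.01 added so that zeros can be drawn) against day, with 1 library per point and 1 color per arm. MYH6 and MYH7 rise over orders of magnitude, and both are highest in passaged cells from Day 5 on. On Day 3 MYH6 is highest in NP-ctrl. MYH9 stays between 48.2 and 129, MYH10 between 35.2 and 152, and MYH11 between 0.05 and 0.17.

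The order of the arms in MYH6 turned over between Day 3 and Day 5. On Day 3 the passaged library held 1 count, NP-IWP2 held 7 and NP-ctrl held 50, and passaged over NP-ctrl gave a ratio of 0.0238, with an exact 95% interval from 0.00059 to 0.139. Over NP-IWP2 the Day 3 ratio was 0.141 (0.00313 to 1.1), which counting error does not separate from 1. By Day 5 the ratio to NP-ctrl was 60.4 (52.9 to 69.2). It was 6.73 (6.6 to 6.87) on Day 7 and 8.24 (8.09 to 8.4) on Day 10. With only 1 library per arm and day these intervals cover counting error and not the spread between cultures.

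Against NP-IWP2 the lead of the passaged cells was largest on Day 5, at 9.13 (8.63 to 9.67), and narrowed to 1.23 (1.22 to 1.24) on Day 7. On Day 10 it was 2.27 (2.25 to 2.3), as MYH6 went on from 778 to 1013 in passaged cells and went from 633 to 445 in NP-IWP2. IWP2 itself gave the same turnover against NP-ctrl, with a Day 3 ratio of 0.169 (0.0645 to 0.374). The ratios of Days 5, 7 and 10 were 6.61 (5.74 to 7.65), 5.47 (5.36 to 5.58) and 3.62 (3.55 to 3.7). From Day 5 to Day 7 MYH6 went up by a ratio of 58.4 (51.2 to 66.9) in NP-ctrl and 48.3 (45.8 to 51) in NP-IWP2. The passaged ratio over the same days was 6.51 (6.39 to 6.63), since MYH6 already stood at 119.6 on Day 5.

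Of the members MYH7 showed the widest separation between passaged and static cells. Its FPKM was 0 on Days 0 and 1 and 0.03 on Day 2. On Days 3, 5, 7 and 10 NP-ctrl had 0.02, 0.03, 1.2 and 4.26, and NP-IWP2 had 0.01, 0.08, 5.77 and 17.3. The passaged values were 0, 2.64, 241 and 209. All 3 libraries of Day 3 held 2 counts or fewer, so no ratio is given for that day.

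From Day 5 on, MYH7 was higher in passaged cells than in either static arm, and on no day did a static library come near. Over NP-ctrl the ratio was 83.1 (28.1 to 406) on Day 5, where NP-ctrl held 3 counts, then 200.3 (164 to 247) on Day 7 and 49 (44 to 54.6) on Day 10. The ratio to NP-IWP2 was 32.2 (15.4 to 80.8), 41.7 (38.4 to 45.5) and 12.1 (11.5 to 12.7). Between the static arms the ratio of NP-IWP2 to NP-ctrl was 2.58 (0.59 to 15.5) on Day 5, which counting error does not separate from 1, and 4.8 (3.86 to 6.02) on Day 7 and 4.05 (3.6 to 4.56) on Day 10. MYH7 ranked 61 among protein-coding genes in passaged cells on Day 10, against 2289 in NP-IWP2 and 8253 in NP-ctrl.

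The arms were then compared over Days 3 to 10 together, in a fit by edgeR's quasi-likelihood test with day as a block over the 12 libraries of the arms. The only repetition is over days, so the p-values measure how steady an arm difference was from day to day within these cultures. For passaged cells against NP-ctrl 933 of the 21206 genes tested passed an adjusted p of 0.05, or 4.4%, and MYH7 was the 1 of the 5 tested members among them. Its log2 difference was 6.59 (SE 0.70, edgeR adjusted p = 0.000877). The fit leans on Day 3, when all arms were at the detection limit, but without Day 3 the difference was 6.81 (edgeR adjusted p = 5.01e-05). With limma on log2(FPKM + 1), a scale that shrinks low values, the adjusted p was 0.115, the highest of the alternatives, which went down to 2.99e-26 without a filter.

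Between passaged cells and NP-IWP2 282 genes passed, or 1.33%, and MYH7 was again the 1 member called, with a log2 difference of 4.61 (SE 0.61, edgeR adjusted p = 0.00612). Without Day 5 the log2 difference was 4.49 (edgeR adjusted p = 0.0935) and without Day 7 it was 3.95 (edgeR adjusted p = 0.0802), so the call was lost in both. The alternatives ranged in adjusted p from 5.46e-20 without a filter to 0.349 by limma. Between NP-IWP2 and NP-ctrl 4 genes passed, or 0.0189%, and no member did. MYH7 had a log2 difference of 1.98 there (SE 0.62, edgeR adjusted p = 0.873), whereas a fit of these 2 arms alone gave 2.02 (edgeR adjusted p = 0.00483) and the alternatives ranged in adjusted p from 8.00e-05 to 1.0.

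MYH6 did not pass in the arm comparisons. Its log2 difference was 2.75 between passaged cells and NP-ctrl (SE 1.24, edgeR adjusted p = 0.256) and 1.56 between passaged cells and NP-IWP2 (SE 0.99, edgeR adjusted p = 0.579). The reversed order on Day 3 enters these values. Without Day 3 the difference to NP-ctrl was 4.09 (edgeR adjusted p = 0.00233), and that to NP-IWP2 was 1.80 (edgeR adjusted p = 0.139). Over all alternatives the adjusted p ranged from 1.34e-05 without a filter to 0.706 without Day 5 for NP-ctrl, and from 0.00818 to 0.839 for NP-IWP2 under the same settings.

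**Figure D2:**
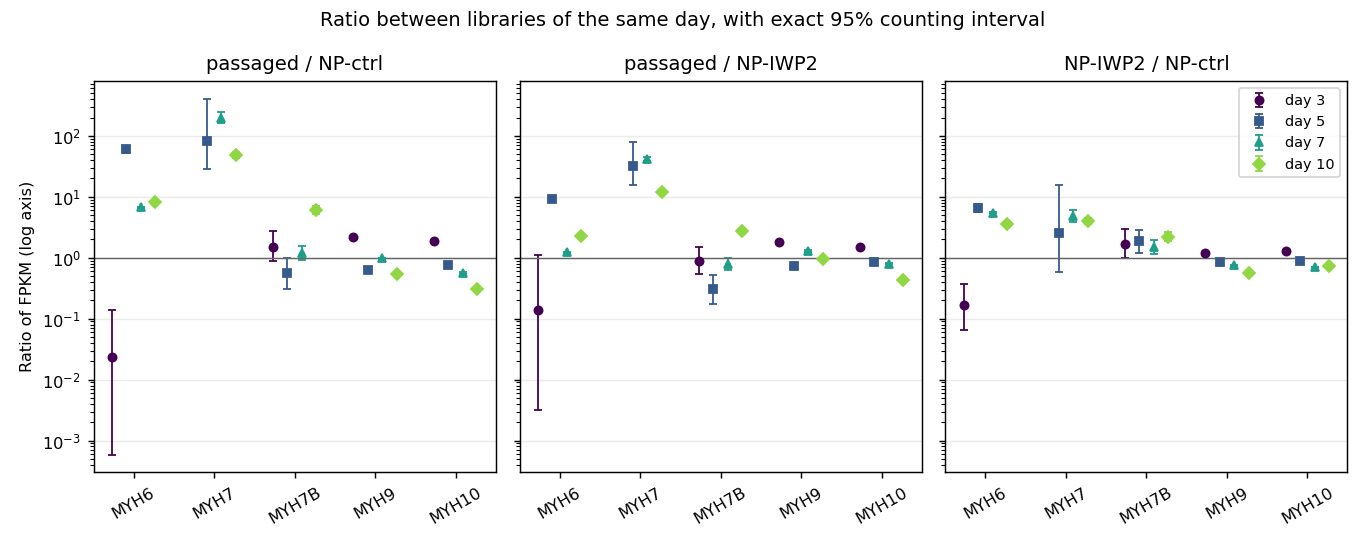
Ratio of FPKM between libraries of the same day for 5 genes and 3 pairs of arms (log axis), with exact 95% counting intervals. MYH7 of Day 3 is not drawn because both libraries held 3 counts or fewer. MYH6 sits below 1 on Day 3 and above 1 later in all 3 panels, and MYH10 goes from 1.9 to 0.31 between passaged cells and NP-ctrl.

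MYH7B was a low transcript that appeared late. Its FPKM was 0.06, 0.07 and 0.08 on Days 0, 1 and 2, and on the later days 0.18, 0.28, 0.85 and 1.95 for NP-ctrl, 0.31, 0.51, 1.27 and 4.31 for NP-IWP2, and 0.27, 0.16, 1.02 and 11.7 for the passaged arm. Passaged cells had no lead on Day 7, when the ratio to NP-ctrl was 1.2 (0.909 to 1.58), and had the highest level on Day 10, 6 times NP-ctrl (5.2 to 6.96) and 2.71 times NP-IWP2 (2.46 to 2.99). On Day 5 passaged cells held 20 counts and NP-IWP2 held 60, a ratio of 0.309 (0.176 to 0.52). In passaged cells MYH7B did not follow MYH6 in time on the first and last steps. From Day 3 to Day 5 MYH6 went from 1 to 13299 counts and MYH7B from 31 to 20. From Day 5 to Day 7 they rose alike, by 6.51 (6.39 to 6.63) for MYH6 and 6.42 (3.98 to 10.9) for MYH7B. From Day 7 to Day 10 the ratio was 1.3 (1.29 to 1.31) for MYH6 and 11.5 (9.55 to 13.9) for MYH7B. In the arm fit its log2 difference between passaged cells and NP-ctrl was 0.95 (SE 0.49, edgeR adjusted p = 0.335). The ends of the gene overlap neighbouring genes, and whether the counting used the strand is not given in the sources used here.

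All 3 sarcomeric chains rose between Day 3 and Day 10 over the arms. In that comparison 7423 genes passed, or 35%, and these were the 3 members of the 5 tested that did, where the adjusted p values from edgeR were 0.000737 for MYH6, 2.07e-05 for MYH7 and 0.00028 for MYH7B. The log2 difference of MYH7B was 4.54 (SE 0.61). For MYH6 and MYH7 the Day 3 counts were too low for a fitted difference to be read as a size. Within the passaged arm the Day 10 level of MYH7 was at least 5742-fold higher than a floor of 3 counts on Day 3, and in NP-ctrl the ratio for MYH6, which had 50 counts on Day 3, was 291 (220.5 to 392).

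The balance of the cardiac pair was compared within libraries, where the library total cancels. The ratio of MYH7 to MYH6 in FPKM was 0.0221 (0.0194 to 0.0251) in passaged cells on Day 5, 0.309 (0.305 to 0.314) on Day 7 and 0.206 (0.203 to 0.209) on Day 10. In NP-IWP2 it was 0.00627 (0.00252 to 0.013), 0.00912 (0.00837 to 0.0099) and 0.0388 (0.0369 to 0.0407). In NP-ctrl it was 0.016 (0.00328 to 0.0475), 0.0104 (0.00841 to 0.0127) and 0.0347 (0.0311 to 0.0386). MYH6 was thus the larger chain in every library from Day 3 on with a usable ratio. The share of MYH7 in the pair was higher in passaged cells on Days 7 and 10 than in any static library, while the static arms lay close together on those days.

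**Figure D3:**
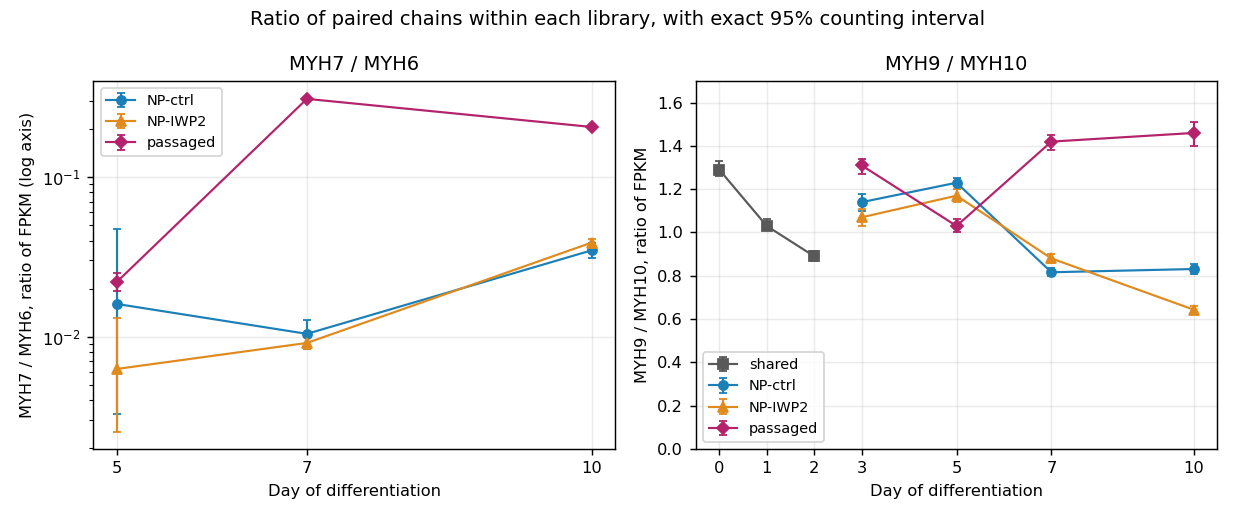
Ratio of MYH7 to MYH6 (left, log axis, Days 5 to 10) and of MYH9 to MYH10 (right, all days) within each library, in FPKM with exact 95% counting intervals. Passaged cells stand above both static arms on Days 7 and 10 in each panel, at 0.309 and 0.206 on the left and 1.42 and 1.46 on the right.

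These ratios depend on the lengths in the table, which credit MYH6 with 7281 bases of exon although its reference transcript has 5940. As a ratio of raw counts the passaged value on Day 7 was 0.256 and on Day 10 0.171. The length enters every library alike and leaves the order of the arms as it is.

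MYH9, the non-muscle IIA chain, was abundant in every library and varied 2.67-fold in all. On Days 0, 1 and 2 its FPKM was 78.9, 62.5 and 55.5. From Day 3 it was 48.2, 129, 124 and 94.4 for NP-ctrl, 58.4, 109, 93.4 and 52.8 for NP-IWP2, and 105, 81.2, 120.5 and 51.3 for the passaged arm. The passaged library was the highest of the arms on Day 3 and, beside NP-IWP2, the lowest on Day 10. Passaged over NP-ctrl, the Day 3 ratio was 2.18 (2.12 to 2.25), and it was 0.631 (0.616 to 0.646) on Day 5 and 0.544 (0.527 to 0.56) on Day 10. On Day 7 it was 0.974 (0.953 to 0.996), and median-of-ratios size factors turned this to 1.09.

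MYH10, the non-muscle IIB chain, was highest in passaged cells on Day 3 and lowest there from Day 5 on. The ratio of passaged cells to each static arm fell at every step from Day 3 to Day 10. It held at 61.0, 60.4 and 62.4 on Days 0, 1 and 2. From Day 3 NP-ctrl had 42.3, 105, 152 and 114, NP-IWP2 had 54.6, 93.2, 106 and 82.1, and the passaged arm had 80.5, 78.7, 85.1 and 35.2. Passaged over NP-ctrl, the 4 ratios were 1.9 (1.84 to 1.97), 0.749 (0.731 to 0.768), 0.561 (0.548 to 0.575) and 0.31 (0.3 to 0.321). The ratio of passaged to NP-IWP2 was 1.48 (1.43 to 1.52), 0.844 (0.822 to 0.866), 0.802 (0.783 to 0.822) and 0.429 (0.415 to 0.444). The passaged library of Day 10 had the lowest MYH10 of all 15 libraries.

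Whether an arm difference changed with the day was tested with a slope per day. Between passaged cells and NP-ctrl 1305 genes passed this test, or 6.15%, and of the 5 members tested MYH10 did, with a log2 slope of -0.31 per day (SE 0.06, edgeR adjusted p = 0.0189). The slope kept its sign without each day in turn, between -0.38 without Day 10 and -0.22 without Day 3. The edgeR adjusted p was then 0.171 without Day 3, 0.0703 without Day 7, 0.129 without Day 10 and 0.115 with these 2 arms alone, so the call needed nearly the whole series. It ranged from 2.47e-05 by DESeq2 to 0.171 over all alternatives. Against NP-IWP2 217 genes passed in edgeR, or 1.02%, and no member did. The slope of MYH10 was -0.21 (edgeR adjusted p = 0.15), and by DESeq2 it was -0.22 and passed (adjusted p = 0.0189). Between NP-IWP2 and NP-ctrl 0 genes passed in edgeR, or 0%, though 1990 had an unadjusted p under 0.05, and DESeq2 called 85 and limma 0. The slope of MYH10 was -0.10 there (edgeR adjusted p = 0.648).

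MYH9 had a slope of -0.19 per day between passaged cells and NP-ctrl (SE 0.09, edgeR adjusted p = 0.212), and MYH7B a slope of 0.40 (SE 0.13, edgeR adjusted p = 0.0995). Without Day 3 that of MYH7B was 0.73 and passed (edgeR adjusted p = 0.00365), and it passed by DESeq2 (adjusted p = 0.0408) and without a filter (edgeR adjusted p = 0.0161). Without Day 10 it was -0.01 (edgeR adjusted p = 1.0), so the slope of MYH7B rested on Day 10. For MYH6 the slope was 0.37 (edgeR adjusted p = 0.626), and it turned to -0.49 without Day 3. Averaged over days, the non-muscle chains did not pass in the arm comparisons. The log2 difference between passaged cells and NP-ctrl was -0.05 for MYH9 (SE 0.27, edgeR adjusted p = 0.954), with the sign turned without Day 5 or Day 10, and -0.43 for MYH10 (SE 0.30, edgeR adjusted p = 0.509), and without Day 3 that of MYH10 was -0.86 (edgeR adjusted p = 0.0355, up to 0.953 without Day 10). Neither passed between Day 3 and Day 10 over all arms, with edgeR adjusted p values of 0.977 for MYH9 and 0.492 for MYH10. Leaving out the passaged arm gave MYH10 a difference of 1.00 there (edgeR adjusted p = 0.00824).

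The ratio of MYH9 to MYH10 went over the shared days from 1.29 (1.26 to 1.33) on Day 0 to 0.89 (0.866 to 0.914) on Day 2. In the static arms it was above 1 on Days 3 and 5 and below 1 on Days 7 and 10, ending at 0.831 (0.81 to 0.852) in NP-ctrl and 0.643 (0.624 to 0.662) in NP-IWP2. In passaged cells it was 1.31 (1.27 to 1.34), 1.03 (1.0 to 1.06), 1.42 (1.38 to 1.45) and 1.46 (1.4 to 1.51). The 2 static arms and the passaged arm therefore lay on opposite sides of 1 on the last 2 days.

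MYH11 stayed at the bottom of the family. Over the 15 libraries it held between 13 and 46 counts with a median of 24, and an FPKM of 0.05 to 0.17. None of the 14 pairs of neighbours in its order differed beyond counting error, but neighbours in a sorted order are the closest libraries. Some pairs further apart did differ. On Day 3 the ratio to NP-ctrl was 2.29 (1.32 to 4.1) for NP-IWP2 and 2.09 (1.19 to 3.76) for the passaged arm. Passaged over NP-IWP2 it was 0.912 (0.567 to 1.46). In NP-IWP2 the ratio of Day 5 to Day 3 was 0.31 (0.152 to 0.592). After Day 3 no pair of arms differed beyond counting error on the same day. The table gives the gene 17729 bases of exon and the reference transcript has 6880. Scaled to that transcript its highest FPKM was 0.431. The gene overlaps NDE1 on the opposite strand, so without strand the reads of the 2 genes cannot be told apart.

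Other smooth muscle markers varied widely in level. The summed FPKM of 8 smooth muscle markers was 18.4 on Day 0, reached 607 in passaged cells on Day 7 and stood on Day 10 at 124.6 for NP-ctrl, 126.5 for NP-IWP2 and 195.6 for the passaged arm. ACTA2, the smooth muscle actin that early cardiomyocytes also express, was at 382 in passaged cells on Day 7, and MYOCD, a coactivator of heart and smooth muscle genes, was at 86.3. In the same library SMTN, which encodes smoothelin, was at 2.27, ACTG2, the enteric smooth muscle actin, at 0.51 and SYNPO2 at 0.31. Of the 7 markers tested between passaged cells and NP-ctrl, MYOCD was higher and SMTN lower, beside 4.4% of all genes called. MYH11 had an FPKM of 0.11 there.

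The classes were then set against each other as shares of the summed FPKM of the 6 genes. On Days 0, 1 and 2 the sarcomeric chains held 0.0466%, 0.0535% and 0.105% of it. From Day 3 the NP-ctrl shares were 0.682%, 0.97%, 29.9% and 38.3%. Those of NP-IWP2 were 0.343%, 6.34%, 76.2% and 77.6%, and those of the passaged arm 0.153%, 43.3%, 83.2% and 93.4%. The passaged arm therefore had the smallest sarcomeric share on Day 3 and the largest from Day 5 on.

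Both parts of the family contributed to the share of the passaged cells on Day 10. The summed sarcomeric FPKM was 1233, against 467 in NP-IWP2 and 129 in NP-ctrl, and the summed non-muscle FPKM was 86.5, against 135 and 208. The sarcomeric chains were 14.3 times the non-muscle chains in passaged cells, 3.46 times in NP-IWP2 and 0.621 times in NP-ctrl. Together the 6 genes took 0.95% of all counts of the passaged library and 0.125% of the counts on Day 0.

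**Figure D4:**
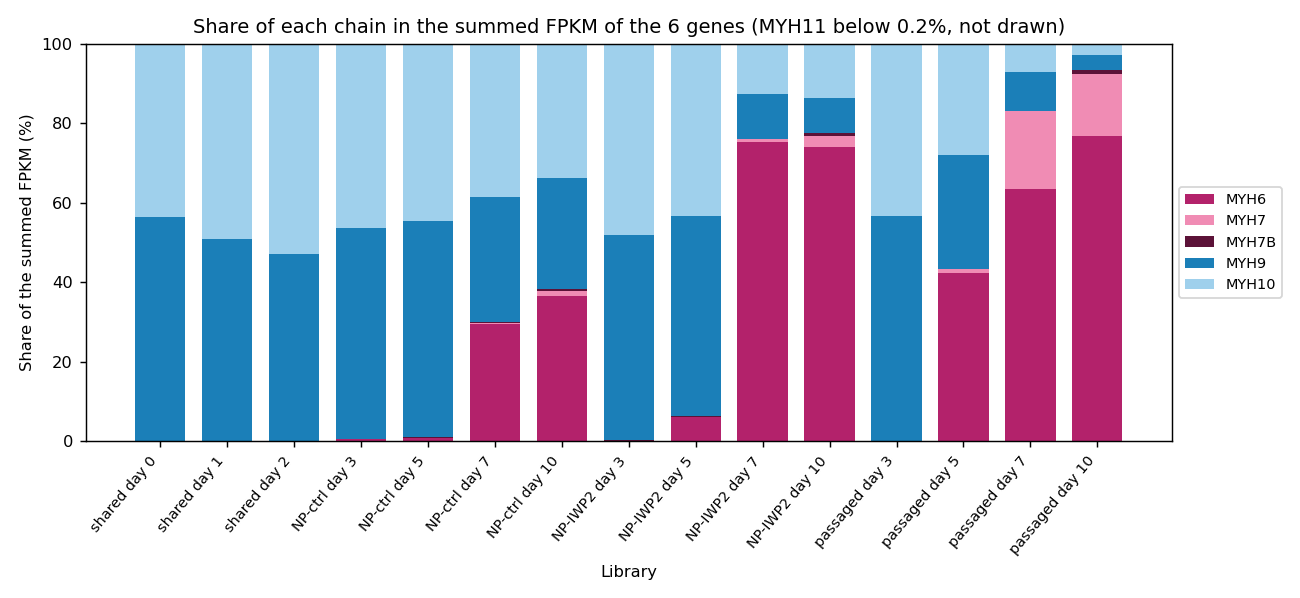
Share of MYH6, MYH7, MYH7B, MYH9 and MYH10 in the summed FPKM of the 6 genes, 1 bar per library. The sarcomeric share on Day 10 is 38.3% for NP-ctrl, 77.6% for NP-IWP2 and 93.4% for the passaged arm, and MYH7 makes up 19.6% of the passaged bar of Day 7.

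The sums of several but not all sets of cell type markers differed between the arms on Day 10, and they are given as measured. The summed FPKM of 9 cardiomyocyte markers on Day 10 was 669 for NP-ctrl, 2038 for NP-IWP2 and 5429 for the passaged arm. That of 6 fibroblast or mesenchyme markers was 4057, 1091 and 96.2, and that of 5 endoderm or liver-like markers was 2960, 864 and 0.55. The sum of 4 epicardial markers was 69, 76.4 and 0.17, and that of 4 pluripotent markers was 23.4, 18.9 and 13.9. The sum of 4 endothelial markers was alike in the arms at 118.3, 117.6 and 120.6, but most of it was KDR, at 93.0, 100.4 and 119.3. The other endothelial markers were lowest in passaged cells. PECAM1 was at 0.81, 1.29 and 0.3, CDH5 at 1.62, 2.44 and 0.36, and TEK at 22.8, 13.5 and 0.68. In the arm fit between passaged cells and NP-ctrl 4.4% of all genes passed. Of the markers 2 of 9 for cardiomyocytes and 1 of 4 for pluripotent cells were higher. The pluripotent one was SOX2, with a log2 difference of 5.92 (edgeR adjusted p = 0.00945). POU5F1 at -1.235, NANOG at -1.346 and LIN28A at 0.1355 did not pass. Lower were 2 of 6 for mesenchyme, 3 of 5 for endoderm and 3 of 4 for epicardium, and 0 of 4 endothelial markers passed. On Day 10 MYH10 was highest in NP-ctrl and lowest in passaged cells, as were the mesenchyme, endoderm and pluripotent sums. The cardiomyocyte sum had the reverse order. With 1 library per arm and day such an order singles out no cell type. MYH9 was alike in NP-IWP2 and passaged cells on that day. The part of cell makeup in these differences was not tested.

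Depth and library quality were checked in the same way. Total counts ranged from 13254723 to 20250115, with no arm set apart. Mitochondrial genes took a share of 1.53% of the passaged library on Day 3 and 10.3% on Day 10, the lowest and highest of the 15 libraries. Without these genes in the library total no single-library ratio moved by more than 1.08-fold, and the part of library quality beyond that was not tested.

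The level order of each gene showed where counting alone could separate libraries. For MYH9, 2 of the 14 pairs of neighbouring libraries did not differ beyond counting error, among them NP-IWP2 and passaged cells on Day 10. For MYH10 there were 5 such pairs, for MYH6 4, all among libraries at or below the level of NP-IWP2 on Day 3, for MYH7 7, and for MYH7B 9.

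Partners of the sarcomeric chains were followed as lists. Light chains sit on the neck of each heavy chain. Of 6 sarcomeric light chains 4 were tested, and 0 passed in the edgeR arm fit of passaged cells against NP-ctrl, beside 4.4% of all genes, with a median log2 difference of 1.61 beside -0.00 over all genes. All 4 rose from Day 3 to Day 10, when 35% of all genes passed. In the slope test, passed by 6.15% of all genes, 2 of the 4 passed, MYL3, the ventricular and slow-muscle essential chain, at 0.84 per day (edgeR adjusted p = 0.0191) and MYL4, the atrial essential chain, at 0.58 (edgeR adjusted p = 0.034). MYL7, the atrial regulatory chain, was at 1868 FPKM in passaged cells on Day 10, and MYL2, the ventricular one, at 1.48.

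Of 11 thick filament partners and chaperones 9 were tested and 5 were called higher with passaging against NP-ctrl, beside 4.4% of all genes called in either direction, with a median log2 difference of 1.87. The largest was that of MYBPC3, cardiac myosin-binding protein C, at 4.18 (SE 0.72, edgeR adjusted p = 0.0104). UNC45B, a chaperone that folds the muscle myosin head, had 3.22 (SE 0.32, edgeR adjusted p = 0.000728), and SMYD1, a methyltransferase needed for thick filament assembly, had 3.18 (SE 0.48, edgeR adjusted p = 0.00551). The titin gene TTN and the M-band gene MYOM1 were the others. UNC45A, the general form of the chaperone, had the lowest value at -0.09 (edgeR adjusted p = 0.817).

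Light chains and regulators listed for non-muscle and smooth muscle myosin were followed in the same fit. Of 5 non-muscle and smooth muscle light chains 0 passed between passaged cells and NP-ctrl, beside 4.4% of all genes, with a median log2 difference of 0.27. The highest was MYL9, a regulatory light chain, at 0.88 (SE 0.31, edgeR adjusted p = 0.136), and MYL12B had the lowest at -0.25. Of 11 regulators 10 were tested and 2 were higher, beside the same 4.4% of all genes. These were MYLK3, the cardiac myosin light chain kinase, at 1.9 (SE 0.21, edgeR adjusted p = 0.00105) and PPP1R12B, a subunit of myosin phosphatase, at 1.64 (SE 0.33, edgeR adjusted p = 0.0205). No other regulator tested passed. The median of the list was 0.14. CIT, citron kinase of the cytokinetic ring, had the lowest value, -0.49 (edgeR adjusted p = 0.458), and it fell from Day 3 to Day 10 over the arms by 2.61 on the log2 scale (edgeR adjusted p = 0.000491).

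Other heavy chain genes in the table were low. MYH14, the third non-muscle chain, had an FPKM of 3.65 on Day 0 and 0.37 to 2.56 from Day 3 on. MYH3, the embryonic skeletal chain, ranged from 0.16 to 0.91 with its highest value in passaged cells on Day 10. MYH15 reached 0.97 in NP-ctrl on Day 10, MYH16 at most 0.36 and MYH2 at most 0.24. MYH1, MYH4, MYH8 and MYH13 held at most 8 counts in any library, and the antisense row MYHAS held 0 in all. Adding the other chains lowered the sarcomeric share of the passaged library on Day 10 from 93.4% to 93.3%.

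Each sarcomeric member carries a microRNA gene in an intron on its own strand. MIR208A lies in intron 29 of MYH6 (hairpin chr14:23388596-23388666), MIR208B in intron 30 of MYH7 (chr14:23417987-23418063) and MIR499A in intron 22 of MYH7B (chr20:34990376-34990497). The mature forms from RefSeq on GRCh38.p14 are shown to compare their seeds, bases 2 to 8, which are in capitals.
hsa-miR-208a-3p: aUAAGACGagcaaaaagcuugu
hsa-miR-208b-3p: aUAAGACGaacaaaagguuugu
hsa-miR-499a-5p: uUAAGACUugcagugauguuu

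The pair from MYH6 and MYH7 shares its seed and differs at 3 of 22 bases, and the one from MYH7B differs from that seed at 1 base. These genes could not be followed here. MIR208A held 10 counts over all libraries with at most 4 in any, MIR208B 2 and MIR499A 2, and the libraries were not described as made for small RNA.

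Promoters were read from RefSeq on GRCh38.p14, where 3 of the 6 members had an entry, MYH6, MYH9 and MYH10. The last 100 bases before the start of MYH6 (chr14:23408274-23408373, minus strand) and MYH9 (chr22:36387968-36388067, minus strand) are shown because 1 gene was switched on and the other was on in every library. Capitals mark TATAAA.
MYH6: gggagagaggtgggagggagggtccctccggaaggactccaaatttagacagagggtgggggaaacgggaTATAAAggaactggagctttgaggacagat
MYH9: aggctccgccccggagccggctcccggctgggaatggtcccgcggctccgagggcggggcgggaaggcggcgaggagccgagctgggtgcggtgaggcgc

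TATAAA was searched on both strands in the last 50 bases before the start and was found in MYH6, starting 30 bases before it, but in neither MYH9 nor MYH10. Of 35116 promoters 3.47% held it. In the 250 bases before the start the GC content was 56.8% for MYH6, 71.6% for MYH9 and 67.2% for MYH10, with 3, 21 and 16 CG pairs, beside medians of 58% and 11 over all promoters. A match is a description of letters and not of binding.

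Genes whose levels ran most like each member were found by Pearson's r of log2(FPKM + 1) over the 15 libraries, among the 10171 protein-coding genes that reached 5 FPKM in some library. These points share arms and days, so the values are descriptions. For MYH6 the closest were SMPX (r = 0.984), FAM174A, NKX2-5, MYBPC3 and HSPB7. For MYH7 they were FRMD3 (r = 0.992), SRL, MRAS, VCAM1 and CSRP3, and for MYH7B LRRC10 (r = 0.98), AMY2B, LAMA4, TRIM63 and LRRC39.

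The lists of MYH6, MYH7 and MYH7B had no gene in common. Lists this short out of 10171 genes can lack overlap even for members that run alike. The overlap was not compared with a reference, so nothing is drawn from it. Between the members themselves r was 0.834 for MYH6 and MYH7, 0.744 for MYH6 and MYH7B and 0.781 for MYH7 and MYH7B. Like MYH7, FRMD3 parted the arms widely, with an FPKM on Day 7 of 0.52 for NP-ctrl, 1.69 for NP-IWP2 and 11.1 for the passaged arm. Like MYH7B, LRRC10 came late in passaged cells, at 2.53 on Day 7 and 37.2 on Day 10. For MYH9 the closest were TSPAN4 (r = 0.911), JDP2, KRT18, NECTIN2 and FLNA, the gene of the actin crosslinker filamin A. For MYH10 they were AKAP12 (r = 0.932), RERE, DTX4, KIRREL1 and SMOC2, and AKAP12 had its lowest level, 8.16, in the same library as MYH10. FRMD3, LRRC10 and AKAP12 were picked by r over the same libraries, so their values restate that choice. Between MYH9 and MYH10 r was 0.808.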

How the data were processed

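RNA from 15 cultures of H1 cells was sequenced, and groups were taken from the sample titles. The authors trimmed reads with cutadapt (version 1.9.1), aligned them to hg38 with HISAT2 (version 2.0.1) and counted them per gene with HTSeq (version 0.6.1), per the labels and methods. The deposited values were whole-number counts and FPKM, which recomputation from counts, exonic length and library total matched within 0.005. A long-read library kit is named beside short-read tools, so the kind of reads is unresolved. Strand use, read length and the annotation release are not given in the sources used here. Positions matched GENCODE release 44 for 93.7% of 60463 genes found by identifier.

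The members and the lists were chosen with earlier results of these data known. Genes named beside the members were those of the lists that stood highest or lowest, or that define a list, and the 5 most alike by r for members with at least 100 counts in a library. TTN, MYOM1, SMYD1, UNC45B, PPP1R12B, MYL3 and MYL4 were chosen after their values were seen. So were the markers ACTA2, MYOCD, SMTN, ACTG2, SYNPO2, KDR, PECAM1, CDH5, TEK, SOX2, POU5F1, NANOG and LIN28A. Fits used the 21206 genes that reached 1 FPKM in some library, edgeR (version 4.0.16) with TMM in R (version 4.3.3), and Benjamini-Hochberg adjustment over all genes tested. The SE was derived from the F statistic. The fits were also run on simulated counts, where each gene had the same mean level on all days and arms apart from a planted change. Real genes changed with the day, so no support for the fits is drawn from that run. The slopes of the other 2 pairs of arms came from the same fit and were reported beside the planned one. DESeq2 (version 1.42.0), limma (version 3.58.1) on log2(FPKM + 1), other scalings, other filters and left-out days or arms were alternatives. Single-library ratios carry exact Clopper-Pearson 95% intervals, which cover counting error only, with a floor of 3 counts. With 1 library per arm and day there were no replicates.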

Additional observations from a re-analysis of the deposited data

Results flagged for a closer look

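The ratio between arms went to opposite sides of 1 on different days, beyond counting error, for several members. All of these ratios rest on 1 library per arm and day, and the slope test in edgeR called 1 of them, MYH10 between passaged cells and NP-ctrl. For MYH6 the ratio of passaged to NP-ctrl was 0.0238 on Day 3 and 60.4 on Day 5, and that of NP-IWP2 to NP-ctrl was 0.169 on Day 3 and 6.61 on Day 5. For MYH7B the ratio of passaged to NP-IWP2 was 0.309 on Day 5 and 2.71 on Day 10. For MYH9 the ratio of passaged to NP-ctrl went from 2.18 on Day 3 to 0.544 on Day 10. Against NP-IWP2 the passaged MYH9 ratio was 1.8 on Day 3 and 0.746 on Day 5, and between NP-IWP2 and NP-ctrl it was 1.21 on Day 3 and 0.559 on Day 10. For MYH10 the ratio of passaged to NP-ctrl was 1.9 on Day 3 and 0.31 on Day 10, and its log2 slope of -0.31 per day passed the test (edgeR adjusted p = 0.0189). Against NP-IWP2 the passaged MYH10 ratio was 1.48 on Day 3 and 0.429 on Day 10, and between NP-IWP2 and NP-ctrl it was 1.29 on Day 3 and 0.7 on Day 7.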

How the results depend on the processing

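Between passaged cells and NP-ctrl, 933 calls became 2150 with DESeq2, 163 with limma, 2571 without a filter and 109 with these 2 arms alone, and 2373, 283, 133 and 323 without Days 3, 5, 7 and 10. Between passaged cells and NP-IWP2, 282 became 886, 6, 1368 and 163 under the same 4 settings, and 675, 51, 13 and 156 without those days. Between NP-IWP2 and NP-ctrl, 4 became 59, 0, 372 and 277, and 35, 0, 0 and 0 (unadjusted p under 0.05 for 996 genes by limma, and by edgeR for 1030, 297 and 497 without Days 5, 7 and 10). Day 10 against Day 3 went from 7423 to 2235 calls without NP-IWP2. The slope test went from 1305 to 2057 with DESeq2, 380 with limma, 2188 without a filter and 259 with 2 arms, and, in alternatives chosen after seeing the data, to 630 without Day 7 and 575 without Day 10. The cause was not tested. Of 315 refits of a member, 279 kept direction and side of the threshold, 8 lost a call, 11 gained one and 17 turned the sign of a log2 value, in all 17 with neither fit past the threshold. The passaged minus NP-ctrl slope of MYH7 (-0.16) was 0.73 with DESeq2, 0.85 with limma, 0.20 without Day 7 and 1.5 without Day 10, that of MYH6 (0.37) was -0.49 without Day 3, and that of MYH7B (0.40) was -0.0068 without Day 10. Against NP-IWP2 the slopes of MYH6 (-0.13) and MYH7 (-0.21) were 0.056 and 0.34 with DESeq2 and 0.040 and 0.56 with limma. The arm difference of MYH9 to NP-ctrl (-0.05) was 0.13 without Day 5 and 0.18 without Day 10. Those to NP-IWP2 went from 0.14 to -0.0092 with 2 arms and -0.62 without Day 10 for MYH7B, and from -0.17 to 0.076 without Day 10 for MYH10. From Day 3 to Day 10, MYH9 (-0.02) was 0.41 without passaged and MYH10 (0.34) was -0.15 without NP-ctrl. Of 69 ratios between single libraries 50 had intervals off 1. Over 3 other scalings 1 of 207 values crossed 1, MYH9 in passaged cells over NP-ctrl on Day 7, at 1.09 with median-of-ratios size factors. The largest shift of a ratio was 1.08-fold without mitochondrial genes, 1.14-fold with median-of-ratios size factors and 1.22-fold with TPM. The intervals cover counting error and not such shifts, even where narrow, as at 1.22 to 1.24 for MYH6 in passaged cells over NP-IWP2 on Day 7. By raw counts the MYH7 to MYH6 ratio of passaged cells on Day 7 was 0.256 and the sarcomeric share on Day 10 was 91.8%. No paired analysis was possible because the libraries carry no replicate numbers to pair by, and the arm fits already hold the day as a block.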
